A study of Mus musculus with 7 samples.

Results

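The respiratory complexes I, III, IV and V are followed here through the 81 of 9999 measured genes whose symbols begin with Nduf, Uqcr, Cox4 to Cox8 or Atp5. The samples are RAW264.7, an established macrophage-like line from a mouse tumour. The knockout group is 4 arrays titled RAW GfI1-1, described by the series as Gfi1 knockout cells, and the wild-type group is 3 arrays of wild-type RAW264.7 cells. Both groups were untreated, labelled T0 and grown in the same serum-containing medium. Gfi1 is a zinc finger repressor of transcription in blood cells. How Gfi1 was edited, at which exon and in how many clones was not stated in the labels. Replicates carry the word biological but no culture is named, so each p-value rests on a spread among arrays that may be technical.

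The members were 33 subunits of complex I, 8 complex I assembly factors, 8 subunits of complex III, 15 genes of complex IV and 17 subunits of complex V. Ndufa4 carries a complex I name but is now assigned to complex IV and was counted there. Where a gene had several probe sets, the one brightest on average across the 7 arrays was used. The signals are log2 intensities, and a difference of 1 is a 2-fold change. Probe sets shared by several symbols were left out.

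The respiratory chain lies in the inner mitochondrial membrane. Complex I takes electrons from NADH to ubiquinone, complex III passes them to cytochrome c, and complex IV hands them to oxygen. Each of these pumps protons, and complex V, the ATP synthase, uses the gradient to make ATP. Most subunits are encoded in the nucleus and imported, the catalytic centres of complexes I, III and IV also need mitochondrially encoded subunits, and assembly factors join the parts without staying in the finished enzyme. In macrophages, inflammatory activation is known for a shift from respiration to glycolysis.

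Arrays and labels were checked first. The only Gfi1 probe set was higher, at 4.93, 5.02, 3.97 and 3.97 in the knockout arrays, against 2.66, 2.85 and 2.98 in the wild-type arrays (1.65, SE 0.30, adjusted p = 0.00447 by limma). Its position in the transcript was compared with no edit, and it therefore checks no label. The macrophage markers Csf1r, Cd68 and Lyz2 averaged 12.29 ± 0.04, 11.28 ± 0.09 and 12.86 ± 0.12 in knockout arrays (SD, n = 4), and 12.89 ± 0.02, 11.95 ± 0.02 and 13.31 ± 0.02 in wild-type arrays (SD, n = 3). Of the listed markers of macrophages 8 of 9 were measured, and 6 were called lower in knockout arrays (75%, against 21.6% of all genes). All 8 differences were negative. The largest was that of Adgre1, at 7.20 ± 0.07 in knockout and 8.72 ± 0.06 in wild-type arrays (-1.51, limma adjusted p = 1.77e-05). Of 24 listed markers of fibroblasts, epithelia, lymphocytes and erythroid cells only Pdgfrb (2.71 ± 0.15 in knockout and 3.90 ± 0.02 in wild-type arrays) and Hba-a2 (4.94 ± 0.14 in knockout and 5.62 ± 0.10 in wild-type arrays) were measured. Their part in the results below was not tested. The knockout arrays fell into similar pairs. Over the 81 members the SD of the log2 difference was 0.0877 between knockout replicates 1 and 2 and 0.0610 between replicates 3 and 4, but 0.165 to 0.182 across these pairs. It was 0.260 to 0.333 between knockout and wild-type arrays, and 0.0546 to 0.0890 among wild-type arrays.

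Respiratory chain genes were mostly lower in the knockout arrays, by small amounts. Of the 8 Ndufaf genes, which encode complex I assembly factors, 3 were called higher and 0 lower. The 9 other measured complex I assembly factors had 1 higher and 3 lower calls. Of the 81 members 27 fell and 5 rose by limma, at an adjusted p under 0.05 over all 9999 genes. That is 33.3% lower and 6.17% higher, against 21.6% lower and 21.5% higher among all genes. In total 32 of the 81 members passed, where 43.1% of all genes did. The median difference was -0.095 over the members and -0.0057 over all genes. Of the 81 members 60 had a negative difference, and of all 9999 genes 5065 did. The array medians relative to the wild-type mean were -0.10, -0.12, -0.11 and -0.083 in knockout replicates 1 to 4, against 0.026, -0.013 and -0.0096 in wild-type replicates 1 to 3. Groups did not overlap for 48 members, 40 of them lower in knockout. All arrays of knockout lay on 1 side of wild type for 54.5% of all genes, and below wild type for 27.9%.

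**Figure D1:**
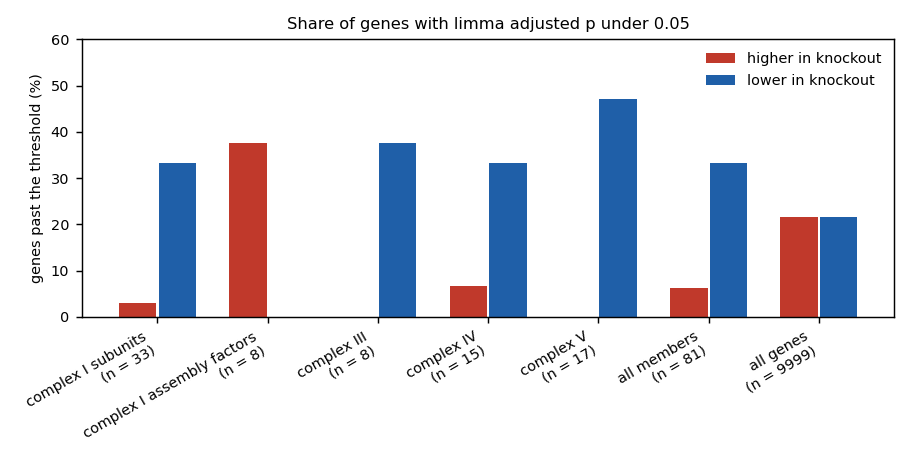
Bars give the percentage of genes past a limma adjusted p of 0.05 in each group of genes (horizontal axis, with n), higher in knockout in red and lower in knockout in blue. Complex I assembly factors of the symbol rule (the Ndufaf genes) have 37.5% higher and no lower calls, complexes III and V have only lower calls, and all genes have nearly equal bars of 21.5% and 21.6%.

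The changes were modest. The absolute difference was under 0.5 for 77 members, between 0.5 and 1 for 3 and above 1 for 1, Cox6a2, while 8.16% of all genes changed by at least 2-fold. That comparison sets unlike signal ranges side by side. Of the members 68 had a mean signal above 9, and 95.7% of genes lay under the median member signal. For 48 of the 49 members that did not pass, the 95% interval of the difference lay within 0.5 of 0 on the log2 scale, with bounds over all 49 from -0.51 to 0.37. These calls treat the 4 knockout arrays as independent. In a further limma fit the similar arrays were random blocks. Knockout replicates 1 and 2 made 1 block, knockout replicates 3 and 4 another, and all wild-type arrays a single one. Wild type thus had no replicate block, and the p-values of this fit measure no spread among wild-type blocks. With these blocks 1 member passed, Cox6a2 (adjusted p = 0.00643). The adjusted p of the other 80 was at least 0.0891. With those blocks 9.04% of all genes passed. Without knockout replicates 3 and 4, 35 members were lower and 7 higher (34.1% of all genes each way). Without replicates 1 and 2, 32 were lower and 9 higher (29.3% and 27.7% of all genes).

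**Figure D2:**
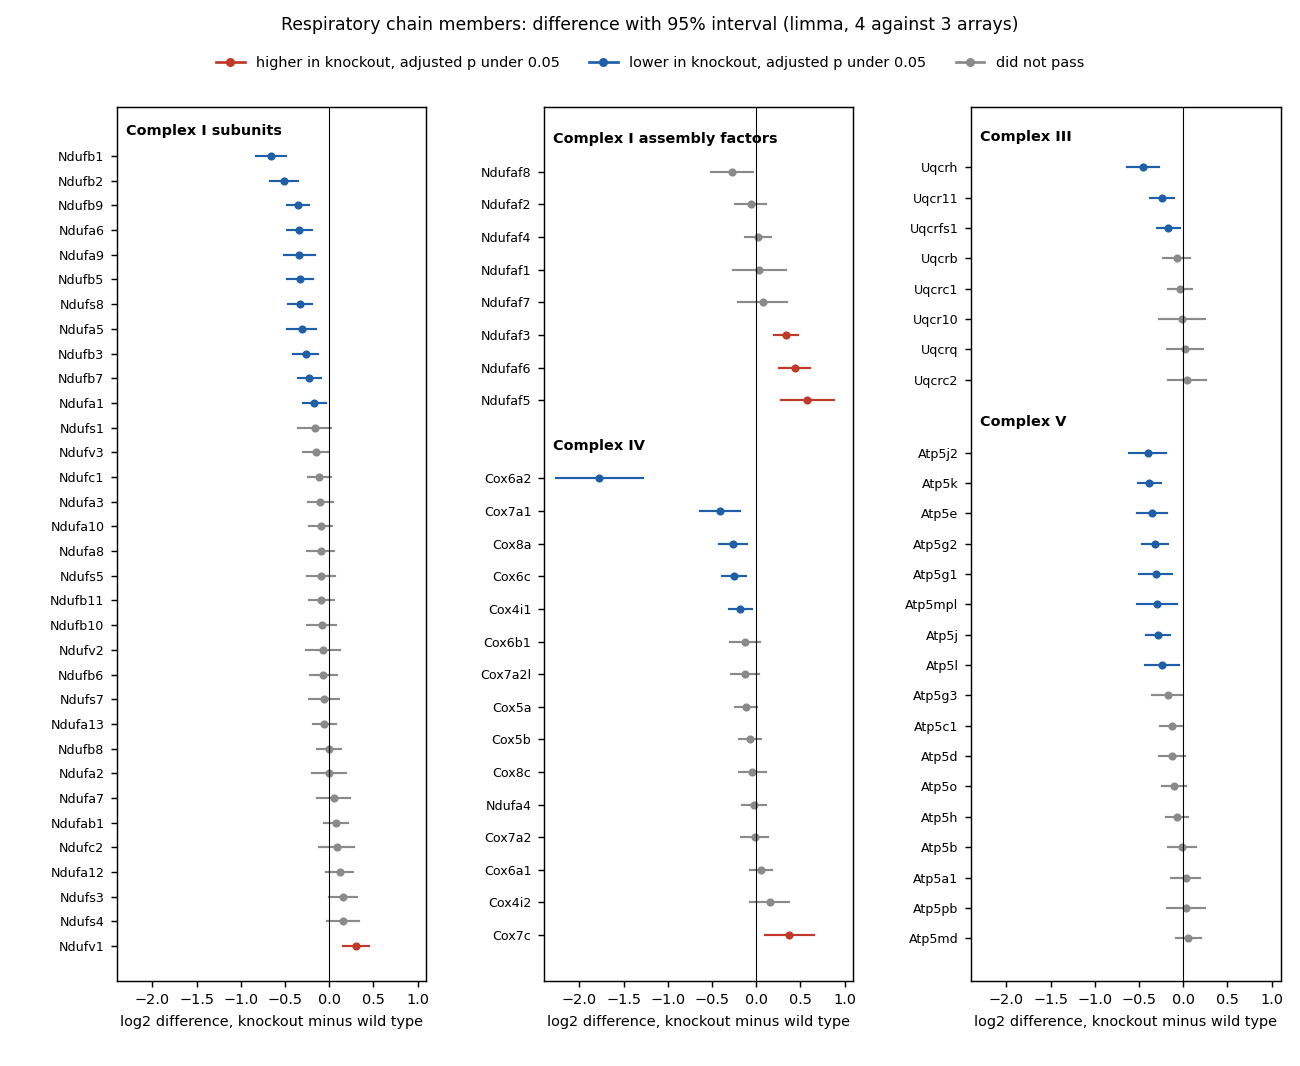
Points give the log2 difference, knockout minus wild type, of all 81 members with their 95% limma intervals, by complex. Cox6a2 at -1.77 lies apart from the other members, which run from -0.66 (Ndufb1) to 0.58 (Ndufaf5).

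Complex IV held the largest change among the members, in a muscle isoform. Cox6a2 encodes the heart and skeletal muscle form of subunit VIa, and Cox6a1 encodes the form of other tissues. Cox6a2 stood at 7.25, 7.33, 7.99 and 8.001 in knockout replicates 1 to 4, against 9.48, 9.35 and 9.42 in wild-type replicates 1 to 3. All knockout arrays were below all wild-type arrays, and replicates 1 and 2 were the lowest. It fell by 1.77 (SE 0.21, limma adjusted p = 7.31e-04), which is 3.42-fold. The signal exceeded that of 59.5% of genes in knockout and 87.0% in wild type. A second Cox6a2 probe set had 6.32, 6.23, 7.03 and 7.003 in knockout, against 8.47, 8.62 and 8.46 in wild type, and fell by 1.87 (SE 0.22, adjusted p = 9.25e-04 over 17335 probe sets).

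Cox6a1 had 13.06, 13.06, 13.09 and 13.05 in knockout arrays and 13.02, 13.02 and 12.997 in wild-type arrays. Its knockout arrays lay narrowly above wild type, and the difference was 0.054 (95% interval -0.069 to 0.18, limma adjusted p = 0.435). Whether the isoforms' changes differed from each other was not tested.

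Cox7a1, the muscle form of subunit VIIa, had 4.52, 4.27, 4.49 and 4.59 in knockout and 4.94, 4.94 and 4.74 in wild-type arrays. It fell by 0.41 (SE 0.096, limma adjusted p = 0.0131) at a dim signal, above that of 10.5% of genes in knockout and 13.6% in wild type. Its call ended without wild-type replicate 1 or 2 (adjusted p = 0.0515 and 0.0585). The widely expressed form Cox7a2 had a difference of -0.018 (95% interval -0.17 to 0.14). Cox7a2l, which encodes a supercomplex assembly factor, had -0.12 (95% interval -0.28 to 0.033). Of the COX4 isoforms, the form of most tissues, Cox4i1, had 12.23, 12.15, 12.18 and 12.22 in knockout and 12.41, 12.36 and 12.36 in wild-type arrays. It fell by 0.18 (SE 0.056, limma adjusted p = 0.0352), a call that ended when any 1 of the 7 arrays was left out (adjusted p = 0.0529 to 0.103). The lung form Cox4i2, above 13.7% of genes in knockout and 12.5% in wild type, had 0.15 (95% interval -0.066 to 0.37).

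**Figure D3:**
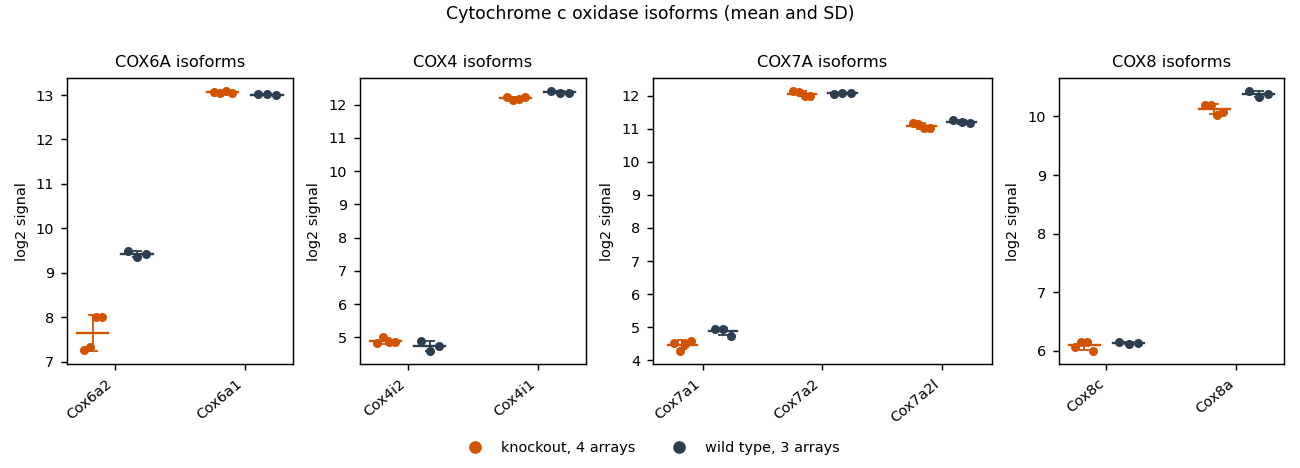
Points are single arrays, with the mean and SD of each group, for isoforms of cytochrome c oxidase subunits (vertical axes, log2 signal), and heights are comparable only within a gene. The 4 knockout points of Cox6a2 run from 7.25 to 8.001, below the 3 wild-type points, while the Cox6a1 points of both groups lie between 12.997 and 13.09.

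The remaining complex IV genes had smaller differences. Cox8a had 10.20, 10.19, 10.02 and 10.08 in knockout and 10.44, 10.34 and 10.38 in wild-type arrays, a fall of 0.26 (SE 0.069, limma adjusted p = 0.0199) that did not pass without wild-type replicate 1, 2 or 3 (adjusted p = 0.0532 to 0.0669). Cox6c had 11.51, 11.47, 11.48 and 11.54 in knockout and 11.82, 11.74 and 11.71 in wild-type arrays, a fall of 0.25 (SE 0.058, limma adjusted p = 0.0112, and 0.0656 as the mean of its probe sets). Both genes encode small nuclear subunits, and neither overlapped between groups. Cox7c was the only riser, at 4.08, 4.41, 4.47 and 4.37 in knockout and 4.01, 3.78 and 4.08 in wild-type arrays (0.37, SE 0.12, adjusted p = 0.0387 by limma). Its groups overlapped, its signal was above 9.66% of genes in knockout and 7.15% in wild type, and the call ended without knockout replicate 2, 3 or 4 or any single wild-type array (adjusted p = 0.0581 to 0.139), and after array centring (0.0564). These dim values come from the brighter of its 2 probe sets, and the other rose by 0.32 (adjusted p = 0.0344) at a still lower signal. Cox5a and Cox5b were lower in every knockout array without passing, at -0.11 and -0.073. The other probe sets of Cox5a had differences of 0.10 and 0.0059. Those of Cox5b had -0.21 (adjusted p = 0.0306 by limma over 17335 probe sets), -0.040 and -0.049. Cox6b1, Ndufa4 and the testis form Cox8c did not pass, at -0.13, -0.029 and -0.043. Over all 15 complex IV genes 5 fell (33.3%) and 1 rose (6.67%), where 21.6% of all genes fell and 21.5% rose. The complex IV median was -0.11.

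Subunits of complex I fell in 11 of 33 cases (33.3%) and rose in 1 (3.03%), where 21.6% of all genes fell and 21.5% rose. Of the 27 accessory subunits, which surround the catalytic core, 10 fell (37.0%), as did 1 of the 6 core subunits (16.7%). Of the 10 measured Ndufb genes, accessory subunits of the membrane arm, 6 fell and 0 rose, all 10 had a negative difference, and their median was -0.25. The Ndufb medians by array were -0.26, -0.28, -0.21 and -0.24 in knockout replicates 1 to 4. Of the 12 Ndufa genes 4 fell and 0 rose (median -0.095), and of the 6 core subunits 1 fell and 1 rose (median -0.065). The other 5 accessory subunits held no call.

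Among the Ndufb genes, Ndufb1 had 5.18, 5.27, 5.22 and 5.20 in knockout and 5.73, 5.94 and 5.95 in wild-type arrays. It fell by 0.66 (SE 0.074, limma adjusted p = 5.92e-04), at a dim signal, above 16.8% of genes in knockout. Ndufb2 had 9.07, 8.99, 9.14 and 9.09 in knockout and 9.49, 9.60 and 9.66 in wild-type arrays, a fall of 0.51 (SE 0.068, adjusted p = 0.00126). In both genes the groups were well separated and no knockout array stood apart. Ndufb9 fell by 0.35, Ndufb5 by 0.33, Ndufb3 by 0.26 and Ndufb7 by 0.23 (limma adjusted p = 0.00194, 0.00497, 0.0116 and 0.0156). Ndufb7 did not pass without wild-type replicate 1 or 2 (adjusted p = 0.0507 and 0.0551).

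Of the Ndufa genes, Ndufa6, whose product belongs to the LYR family and binds the mitochondrial acyl carrier protein, had 10.20, 10.17, 10.07 and 10.11 in knockout and 10.49, 10.49 and 10.45 in wild-type arrays. It fell by 0.34 (SE 0.060, limma adjusted p = 0.00403). Ndufa9, an NADPH-binding subunit between the arms of the enzyme, had 10.17, 10.33, 10.40 and 10.39 in knockout and 10.69, 10.65 and 10.64 in wild-type arrays, a fall of 0.34 (SE 0.074). Knockout replicate 1 was the lowest array for Ndufa9. Ndufa5 of the matrix arm fell by 0.31 (SE 0.069). Ndufa1, a small membrane subunit encoded on the X chromosome, had a fall of 0.17 (limma adjusted p = 0.0454) that ended when any 1 of the 7 arrays was left out (adjusted p = 0.0649 to 0.125) and after quantile normalization (0.141).

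The core subunits held 1 call in each direction. Ndufs8, an iron-sulphur subunit that carries electrons towards ubiquinone, had 11.35, 11.34, 11.42 and 11.35 in knockout and 11.75, 11.66 and 11.68 in wild-type arrays. It fell by 0.33 (SE 0.057, limma adjusted p = 0.00376), and its other 4 probe sets fell by 0.29 to 0.45. Ndufv1, which binds NADH and the flavin where electrons enter, had 10.04, 10.01, 9.98 and 10.01 in knockout and 9.81, 9.69 and 9.63 in wild-type arrays. It rose by 0.30 (SE 0.064, limma adjusted p = 0.00842), and its other 2 probe sets rose by 0.32 and 0.32. The groups of both genes did not overlap. Ndufs1, Ndufs3, Ndufs7 and Ndufv2 did not pass.

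**Figure D4:**
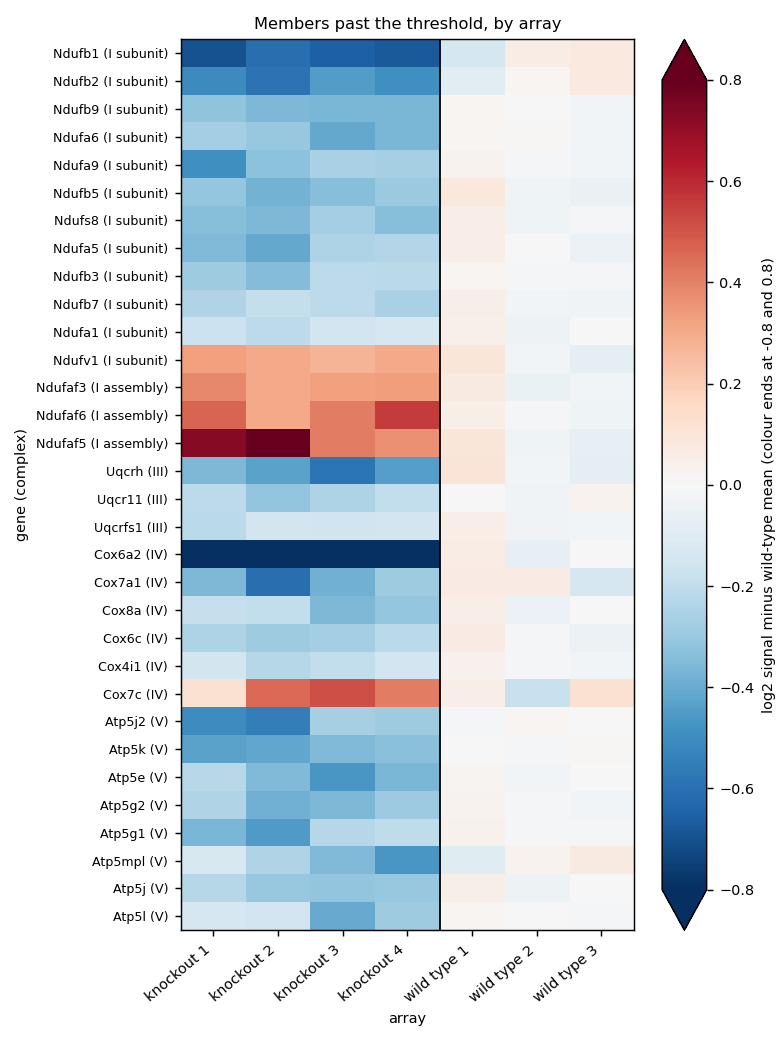
Colour gives the log2 signal minus the wild-type mean for the 32 members past the threshold (rows, with their complex) in each array (columns). Knockout columns are blue in the rows of the 27 lower members and red in those of the 5 higher ones, with Cox6a2 beyond the colour scale.

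The Ndufaf genes, complex I assembly factors, numbered 8. Of these 3 rose (37.5%, against 21.5% of all genes), 0 fell (21.6% of all genes) and 5 did not pass. Their median was 0.055, against -0.095 for the 33 subunits. The array medians were 0.044, 0.052, 0.21 and 0.25 in knockout replicates 1 to 4 for assembly factors, and -0.088, -0.16, -0.12 and -0.079 for subunits. In wild-type replicates 1 to 3 they were 0.058, -0.030 and -0.021 for assembly factors, and 0.018, -0.0030 and -0.0079 for subunits. For assembly factors, knockout replicates 1 and 2 thus lay below wild-type replicate 1. Of 9 other measured complex I assembly factors 1 rose and 3 fell. No test between these lists was made, and the Ndufaf median moved to 0.23 without knockout replicates 1 and 2.

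Ndufaf5 rose most. Its product hydroxylates the core subunit NDUFS7, as known from human cells. It had 7.80, 7.88, 7.48 and 7.44 in knockout and 7.17, 7.03 and 7.003 in wild-type arrays, with replicates 1 and 2 the highest and no overlap between groups, and it rose by 0.58 (SE 0.13, limma adjusted p = 0.00952). Ndufaf6, an early assembly factor, had 8.09, 7.93, 8.04 and 8.19 in knockout and 7.68, 7.62 and 7.60 in wild-type arrays, a rise of 0.43 (SE 0.076, adjusted p = 0.00376). Ndufaf3, which joins Ndufaf4 in building the ubiquinone-reducing part, had 8.61, 8.53, 8.56 and 8.56 in knockout and 8.30, 8.18 and 8.21 in wild-type arrays, a rise of 0.34 (SE 0.060, adjusted p = 0.00409). All 3 passed without each array in turn, and none passed with the similar arrays as random blocks (adjusted p = 0.129, 0.213 and 0.238).

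The partner Ndufaf4 had a difference of 0.019 (95% interval -0.13 to 0.17). Ndufaf8, the human partner of NDUFAF5, had 9.23, 9.25, 8.98 and 8.93 in knockout and 9.44, 9.31 and 9.36 in wild-type arrays. Its difference of -0.27 did not pass (limma adjusted p = 0.0641), but did without knockout replicate 2 (-0.32, adjusted p = 0.0437), after quantile normalization (0.0479), after array centring (0.0317) and without knockout replicates 1 and 2 (0.00134). In the remaining 3 genes the knockout pairs differed from each other. Ndufaf1, of the complex that builds the membrane arm, had -0.21, -0.11, 0.24 and 0.22 relative to the wild-type mean in knockout replicates 1 to 4, and passed in opposite directions without replicates 1 and 2 (0.23) and without replicates 3 and 4 (-0.16). Ndufaf7, a methyltransferase, had -0.18, 0.025, 0.18 and 0.27, and Ndufaf2, a late-stage factor, had 0.059, 0.0038, -0.17 and -0.14.

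**Figure D5:**
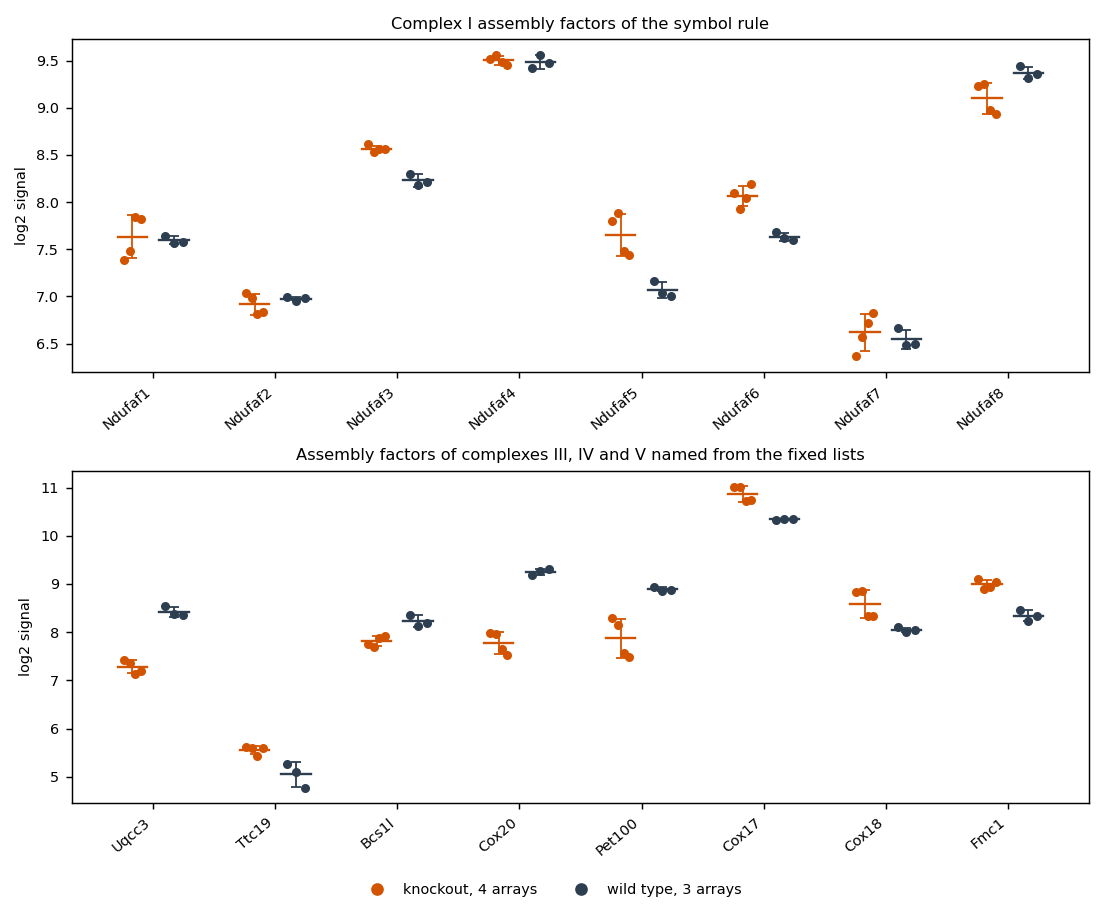
Points are single arrays with the mean and SD of each group (vertical axes, log2 signal) for the 8 complex I assembly factors of the symbol rule (top) and for assembly factors of complexes III, IV and V (bottom). Ndufaf3, Ndufaf5 and Ndufaf6 lie higher in all 4 knockout arrays, and Uqcc3, Cox20 and Pet100 lie lower in all 4.

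Complex III showed 3 falls among 8 subunits (37.5%, against 21.6% of all genes) and 0 rises, with a median of -0.054. Uqcrh, the hinge protein at the docking site of cytochrome c, had 11.40, 11.33, 11.18 and 11.32 in knockout and 11.86, 11.74 and 11.68 in wild-type arrays. It fell by 0.45 (SE 0.078, limma adjusted p = 0.00356), with replicate 3 the lowest array, and its other probe set fell by 0.40. The small subunit gene Uqcr11 had 9.86, 9.75, 9.82 and 9.87 in knockout and 10.07, 10.04 and 10.10 in wild-type arrays, a fall of 0.24 (adjusted p = 0.0141) that did not pass without wild-type replicate 2 or 3 (adjusted p = 0.0502 and 0.0618). Uqcrfs1, the Rieske iron-sulphur protein, had 9.62, 9.69, 9.67 and 9.68 in knockout and 9.89, 9.80 and 9.81 in wild-type arrays. Its fall of 0.17 (adjusted p = 0.0480) ended when any 1 of the 7 arrays was left out (adjusted p = 0.0753 to 0.128).

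The other complex III subunits did not pass. The large structural proteins Uqcrc1 and Uqcrc2 had differences of -0.035 (95% interval -0.17 to 0.10) and 0.041 (-0.17 to 0.26), and the small subunits Uqcrb and Uqcrq had -0.073 (-0.23 to 0.082) and 0.021 (-0.19 to 0.23). Uqcr10 had 0.17, 0.14, -0.21 and -0.15 relative to the wild-type mean in knockout replicates 1 to 4, so replicates 1 and 2 lay above wild type and replicates 3 and 4 below it. It passed in opposite directions without replicates 1 and 2 (-0.18) and without replicates 3 and 4 (0.15).

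Complex V had lower calls only. Of 17 subunits 8 fell, or 47.1%, against 21.6% of all genes, and 0 rose. The median was -0.17, and in 13 all knockout arrays lay below all wild-type arrays (27.9% of all genes). The array medians were -0.13, -0.17, -0.15 and -0.18 in knockout replicates 1 to 4, against 0.019, -0.0084 and -0.013 in wild-type replicates 1 to 3. Of the 5 subunits of the F1 part, which holds the catalytic subunits, 1 fell. It was the epsilon subunit gene Atp5e, at 10.91, 10.78, 10.67 and 10.77 in knockout and 11.15, 11.11 and 11.13 in wild-type arrays (-0.35, SE 0.071, adjusted p = 0.00708 by limma).

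The membrane subunit genes Atp5j2 (subunit f) and Atp5k (subunit e) fell most. Atp5j2 had 10.58, 10.53, 10.81 and 10.80 in knockout and 11.06, 11.10 and 11.08 in wild-type arrays, with replicates 1 and 2 the lowest, a fall of 0.40 (SE 0.089, limma adjusted p = 0.0103). Atp5k had 10.59, 10.61, 10.67 and 10.69 in knockout and 11.02, 11.01 and 11.03 in wild-type arrays, a fall of 0.38 (SE 0.056, adjusted p = 0.00177), and its other 2 probe sets fell by 0.40 and 0.50. No knockout array of these genes overlapped with wild type. Atp5j, the coupling factor F6 of the stalk, fell by 0.29 (adjusted p = 0.00667).

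Subunit c, whose ring turns with the proton flow, is encoded by 3 genes for the same mature protein. Atp5g1 had 10.10, 10.02, 10.25 and 10.27 in knockout and 10.50, 10.46 and 10.45 in wild-type arrays. Atp5g2 had 10.68, 10.53, 10.56 and 10.62 in knockout and 10.94, 10.91 and 10.90 in wild-type arrays. Atp5g3 had 12.01, 12.01, 12.15 and 12.19 in knockout and 12.33, 12.25 and 12.21 in wild-type arrays. All 3 were lower in every knockout array. The falls of Atp5g1 (0.31, limma adjusted p = 0.0168) and Atp5g2 (0.32, adjusted p = 0.00561) passed. The difference of Atp5g3 (-0.17, adjusted p = 0.0969) did not. Atp5g1 lost its call when any 1 wild-type array was left out (adjusted p = 0.0542 to 0.0579).

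The weakest complex V calls were in small membrane subunits. Atp5l (subunit g) had 11.17, 11.15, 10.90 and 11.02 in knockout and 11.32, 11.30 and 11.29 in wild-type arrays, a fall of 0.24 (limma adjusted p = 0.0459), and did not pass without knockout replicate 3 or 4 or any single wild-type array (adjusted p = 0.0710 to 0.123). Atp5mpl, a small proteolipid, had 10.34, 10.23, 10.12 and 10.000 in knockout and 10.37, 10.49 and 10.54 in wild-type arrays, a fall of 0.30 (adjusted p = 0.0399). It did not pass without knockout replicate 2, 3 or 4 or any single wild-type array (adjusted p = 0.0540 to 0.136). The catalytic beta subunit gene Atp5b had a difference of -0.014 (95% interval -0.17 to 0.14), the delta subunit gene Atp5d had -0.13 (-0.27 to 0.022), and the largest positive difference was that of Atp5md, at 0.058 (-0.085 to 0.20).

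The alpha subunit gene Atp5a1 depended on its probe set. The brightest gave 0.026 (95% interval -0.13 to 0.18). Another had 10.40, 10.40, 10.57 and 10.52 in knockout arrays, against 11.16, 11.22 and 11.20 in wild-type arrays, and a difference of -0.72. The third had a difference of -0.61, and both passed in a limma fit over all 17335 probe sets (adjusted p = 4.75e-04 and 0.00103). These probe sets were looked at after their values were seen. The 14 called members with several probe sets had 19 further ones, of which 19 had the sign of the one used and 16 passed. Members that did not pass had 47 further probe sets, those of Atp5a1 included, of which 19 had the opposite sign to the one used. Of the 47, 6 passed with the opposite sign and 3 with the same sign. Beside both of Atp5a1, those with the opposite sign were dim probe sets of Atp5c1 (0.79, against -0.13 for the one used), Ndufa3 (0.52, against -0.099), Ndufab1 (-0.79, against 0.077) and Ndufs4 (-0.83, against 0.16).

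Genes of the same pathway outside the symbol rule gave some of the larger changes. Of 39 further assembly factors of complexes I, III, IV and V, 11 fell and 7 rose (28.2% and 17.9%, where 21.6% of all genes fell and 21.5% rose), with a median of -0.041. Cox20, which chaperones the mitochondrially encoded subunit II of complex IV, had 7.98, 7.97, 7.66 and 7.53 in knockout and 9.18, 9.27 and 9.30 in wild-type arrays. It fell by 1.47 (SE 0.12, limma adjusted p = 1.91e-04; adjusted p = 0.00519 with the similar arrays as random blocks). Uqcc3, needed early in complex III assembly, had 7.42, 7.37, 7.14 and 7.21 in knockout and 8.54, 8.37 and 8.36 in wild-type arrays. It fell by 1.14 (SE 0.092, adjusted p = 1.58e-04, and 0.0115 with those blocks). Pet100, of complex IV assembly, had 8.29, 8.15, 7.57 and 7.48 in knockout and 8.94, 8.86 and 8.86 in wild-type arrays, a fall of 1.02 (adjusted p = 0.00739, and 0.0513 with those blocks), with replicates 3 and 4 the lowest.

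In the same lists the copper chaperone gene Cox17 rose by 0.53, Cox18, which inserts subunit II into the membrane, by 0.54, and Fmc1, of complex V assembly, by 0.65 (limma adjusted p = 0.00430, 0.0251 and 0.00107). For complex III, Ttc19 rose by 0.51 and Bcs1l, which inserts the Rieske protein, fell by 0.41 (adjusted p = 0.0138 and 0.00866). For complex I, Dmac2 fell by 0.67, Dmac1 by 0.38 and Timmdc1 by 0.22, and Acad9 rose by 0.33 (adjusted p = 0.00682, 0.0250, 0.0343 and 0.0129). With the similar arrays as random blocks none of these 9 genes passed (adjusted p = 0.0722 for Cox17, 0.142 for Cox18, 0.136 for Fmc1, 0.414 for Ttc19, 0.268 for Bcs1l, 0.151 for Dmac2, 0.239 for Dmac1, 0.404 for Timmdc1 and 0.401 for Acad9). Some calls also ended without 1 array: Cox18 without knockout replicate 1 or any single wild-type array (adjusted p up to 0.0836), Dmac1 without knockout replicate 4 or any single wild-type array (0.0820), Timmdc1 without knockout replicate 1 or 2 or any single wild-type array (0.111), and Acad9 without wild-type replicate 3 (0.0541). Acad9 had 0.062 (adjusted p = 0.704) as the mean of its probe sets. Uqcc2 of complex III assembly had 0.13 (95% interval -0.014 to 0.28).

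Of 8 complex II genes 5 fell (62.5%) and 1 rose (12.5%), where 21.6% of all genes fell and 21.5% rose. Their median was -0.28. Sdha, the flavoprotein, had -0.62, Sdhc, a membrane anchor, -0.49, and the assembly factor gene Sdhaf1 0.55 (limma adjusted p = 0.00109, 0.00532 and 0.00149). Sdhaf2, another assembly factor gene, fell by 0.45 (adjusted p = 0.0155), but did not pass without wild-type replicate 2 or 3 (up to 0.0563) and had 0.066 (adjusted p = 0.702) as the mean of its probe sets. Sdhb, the iron-sulphur subunit, had -0.052 (95% interval -0.23 to 0.13). With the similar arrays as random blocks Sdha alone of the complex II genes passed (adjusted p = 0.0481), and Sdhc, Sdhaf1 and Sdhaf2 did not (0.0965, 0.0640 and 0.149). The electron carrier cytochrome c, Cycs, had a difference of 0.16 (95% interval -0.12 to 0.45), while Hccs, which attaches its heme, rose by 0.43 (adjusted p = 0.00364, 0.0671 as the mean of its probe sets and 0.171 with those blocks). One mitochondrially encoded subunit was measured. ND5 had 10.45, 10.42, 11.04 and 10.93 in knockout and 10.75, 11.01 and 11.15 in wild-type arrays, below wild type in replicates 1 and 2 only, and did not pass (-0.26, SE 0.18, adjusted p = 0.282).

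Transcription factors known to drive respiratory genes were mostly not called. Of 15 measured 1 rose and 1 fell (6.67% each, where 21.5% of all genes rose and 21.6% fell). Nrf1, the nuclear respiratory factor, had 6.27, 6.29, 6.31 and 6.39 in knockout and 5.63, 5.81 and 5.82 in wild-type arrays, a rise of 0.56 (SE 0.071, limma adjusted p = 9.96e-04), but 0.19 (adjusted p = 0.0570) as the mean of its probe sets. The coactivator gene Ppargc1b had 7.07, 7.003, 7.30 and 7.29 in knockout and 7.73, 7.68 and 7.71 in wild-type arrays, a fall of 0.54 (SE 0.090, adjusted p = 0.00319). Neither call held with the similar arrays as random blocks (adjusted p = 0.110 for Nrf1 and 0.0742 for Ppargc1b). Yy1 had a difference of 0.0045 (95% interval -0.23 to 0.23). Gabpa had -1.17, -1.17, -0.055 and -0.14 relative to the wild-type mean in knockout replicates 1 to 4. Its difference of -0.63 (95% interval -1.36 to 0.093, limma adjusted p = 0.136) did not pass. Gabpb2 had -0.58 (95% interval -1.06 to -0.088, adjusted p = 0.0589) and did not pass either. Both differences were larger in size than that of Ppargc1b.

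Promoter sequence was read for the 67 members that RefSeq's promoter table (GRCm38.p6) holds, as 72 windows of 250 bases before to 30 after a gene's start. The palindromic NRF1 site, without mismatch, was in 5 windows, or 6.94%, against 0.910% of 32851 windows of all genes. Both strands were searched for each motif. The 5 windows are shown because they hold that site, given in capitals, in members that moved differently: Ndufaf5 rose, Atp5k and Atp5g2 fell, and Ndufaf4 and Cox6a1 did not pass. The windows lie at chr2:140170396-140170675, strand + (Ndufaf5), chr5:108434370-108434649, strand - (Atp5k), chr15:102671018-102671297, strand - (Atp5g2), chr4:24897833-24898112, strand + (Ndufaf4) and chr5:115348929-115349208, strand - (Cox6a1), each written 5′ to 3′ along its gene.
Ndufaf5: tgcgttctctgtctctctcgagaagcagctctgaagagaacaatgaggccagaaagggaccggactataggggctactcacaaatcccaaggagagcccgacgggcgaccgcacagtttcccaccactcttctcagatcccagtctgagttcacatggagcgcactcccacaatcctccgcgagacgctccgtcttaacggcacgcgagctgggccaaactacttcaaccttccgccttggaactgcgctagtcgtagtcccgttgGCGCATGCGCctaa
Atp5k: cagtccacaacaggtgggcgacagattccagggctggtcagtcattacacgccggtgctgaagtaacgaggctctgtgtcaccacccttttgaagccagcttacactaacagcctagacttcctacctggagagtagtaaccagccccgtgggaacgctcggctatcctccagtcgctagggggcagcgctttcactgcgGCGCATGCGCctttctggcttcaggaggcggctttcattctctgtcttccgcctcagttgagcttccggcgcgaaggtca
Atp5g2: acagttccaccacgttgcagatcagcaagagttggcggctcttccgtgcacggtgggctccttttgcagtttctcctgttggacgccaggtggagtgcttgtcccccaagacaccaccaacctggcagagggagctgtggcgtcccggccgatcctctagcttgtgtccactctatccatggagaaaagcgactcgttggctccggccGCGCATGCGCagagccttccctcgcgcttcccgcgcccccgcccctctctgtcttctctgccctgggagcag
Ndufaf4: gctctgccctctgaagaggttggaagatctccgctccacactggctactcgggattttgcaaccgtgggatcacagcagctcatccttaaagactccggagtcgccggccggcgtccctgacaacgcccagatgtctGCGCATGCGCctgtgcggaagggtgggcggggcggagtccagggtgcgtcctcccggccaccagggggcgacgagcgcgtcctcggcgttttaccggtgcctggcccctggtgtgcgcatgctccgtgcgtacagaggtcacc
Cox6a1: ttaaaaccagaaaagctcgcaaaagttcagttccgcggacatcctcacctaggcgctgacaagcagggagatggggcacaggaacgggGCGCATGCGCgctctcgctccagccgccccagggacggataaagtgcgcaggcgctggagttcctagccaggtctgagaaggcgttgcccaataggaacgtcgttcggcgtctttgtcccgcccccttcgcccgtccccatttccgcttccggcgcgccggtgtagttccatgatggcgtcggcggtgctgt

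The ETS letters CCGGAAG were in 17 of 72 member windows, or 23.6%, against 8.45% of all windows. They were in 9 of 24 windows of members that fell, 0 of 4 of members that rose and 8 of 44 of members that did not pass. The YY1 site, without mismatch, was in 1 member window (1.39%, against 0.411% of all). The core of the Gfi1 site, AATC, was in 70.8% of member windows and 71.7% of all, and the longer AAATCAC, which holds that core, in 1.39% and 3.04%. These are counts of letters and not of bound sites.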

How the data were processed

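Biotinylated cRNA from total RNA was hybridised to Affymetrix arrays, per the labels' protocols. The deposited values are intensities on a linear scale for 19431 probe sets, made with RMA per the submitters' processing notes. RMA brings the arrays to a common distribution of probe signals, so a change common to all genes would not be seen, and differences of very bright or dim probe sets can come out too small. Median intensity per array was 93.8 to 101. Log2 was taken here before every test. Groups and replicate numbers come from the sample titles.

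A platform annotation named 17335 probe sets with 1 symbol, of which 17297 were found in RefSeq's gene table (GRCm38.p6), 532 had several symbols and 1564 none. The brightest probe set stood for each of 9999 genes. The members are the symbols of the stated rule, and their split by complex and role was written by hand. Members and lists were chosen with earlier results of these data known.

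Groups were compared with limma 3.58.1 in R 4.3.3 (2-group linear model, moderated two-sided test, Benjamini-Hochberg over 9999 genes, threshold 0.05, 5 residual and 2.20 prior degrees of freedom), and the fit was tested on simulated data. Members have no p over the list. Genes named are Gfi1, complex III members, complex I assembly factors, all called members, isoform pairs, the member of highest mean and the largest differences of each complex, and up to 4 called genes with the one of highest mean per further list. The Gfi1 letters, the second probe sets, Gabpa and Gabpb2 were added after values were seen. Also named outside that selection are Cox5a, Cox5b, Ndufs1, Ndufs3, Ndufs7, Ndufv2, the cell type markers and the shared probe sets. Alternatives were quantile normalization, array centring, leaving out dim genes, an intensity trend with a robust prior, averaged probe sets, replicate number as a block, similar arrays as random blocks, and leaving out arrays singly or by similar pair. Same-numbered arrays deviated from their group means with correlations of 0.12, -0.09 and 0.11, so the numbers were not taken to pair the samples. The number of arrays limits the precision.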

Additional observations from a re-analysis of the deposited data

Results flagged for a closer look

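In 3 of 95 results examined, 1 knockout array lay far from the other 3, by a gap, relative to the group's range, above Dixon's 95% critical value. Chance alone flags about 1 in 20 such groups, and the 3 wild-type arrays were too few to examine. For Atp5j, the ATP synthase coupling factor F6, knockout replicate 1 stood at 10.73, against 10.65, 10.64 and 10.66 in replicates 2 to 4, still below the wild-type arrays. For Ndufa4 it stood at 11.10, against 11.06 in each of the other knockout arrays, and overlapped with wild type. For Ttc19, an assembly factor of complex III, knockout replicate 3 stood at 5.43, against 5.62, 5.61 and 5.59, and was above the wild-type arrays.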

How the results depend on the processing

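The 32 called members kept the sign of their difference in every setting that tested them, which leaving out dim genes did not do for Ndufb1, Cox7c and Cox7a1. With similar arrays as random blocks 904 genes, 1 lower and 0 higher members passed. Without knockout replicates 3 and 4, 6814 genes passed. Without replicates 1 and 2, 9 members were higher, as were 27.7% of all genes. With replicate number as a block 3805 of 9999 genes passed, 17 members were lower and 4 higher, and the samples share only a number. Knockout replicate 4 has no wild-type array of its number and adds nothing to the differences of that fit. They equal those without knockout replicate 4 (-0.27 for Cox6c in both). Leaving out 1 array at a time gave 2879 to 4465 genes, 4 to 5 higher and 17 to 24 lower members, the fewest without wild-type replicate 2. Of the 32 calls, 21 passed without each array. The complex IV median was -0.065 after quantile normalization, -0.14 after array centring, -0.093 as the mean of probe sets, -0.10 with the replicate block, -0.084 without knockout replicates 1 and 2 and -0.076 without replicates 3 and 4. The complex V median was -0.20 after centring, -0.24 as the mean of probe sets and -0.21 with the replicate block. Without replicates 1 and 2 the medians were 0.23 for complex I assembly factors and -0.12 for complex III. Medians without 1 array ran from -0.12 to -0.093 for complex IV, -0.21 to -0.14 for complex V, -0.079 to -0.044 for complex III, -0.11 to -0.082 for complex I subunits and 0.022 to 0.14 for complex I assembly factors. As the mean of probe sets Sdhaf2 turned to 0.066 and Opa1 to 0.034. The cause of these shifts was not tested. Low signals of Cox7c, Cox7a1, Cox4i2 and Ndufb1 limit their values.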

Other observations

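Among genes that feed the respiratory chain, of 13 tricarboxylic acid cycle genes 7 rose and 1 fell, with a median difference of 0.20, where 21.5% of all genes rose and 21.6% fell. Dld, the dehydrogenase shared by several enzyme complexes, had 8.24, 8.31, 8.41 and 8.40 in knockout and 7.86, 7.85 and 7.84 in wild-type arrays, a rise of 0.49 (SE 0.066, limma adjusted p = 0.00124). Suclg2 rose by 0.40, Dlst by 0.25 and Mdh2 by 0.22 (adjusted p = 0.00536, 0.0219 and 0.0456). Mdh2 did not pass without 6 of the 7 arrays and Dlst without 5, with adjusted p of up to 0.118 and 0.0732. None of Dld, Suclg2, Dlst and Mdh2 passed with similar arrays as random blocks (adjusted p = 0.0728, 0.212, 0.309 and 0.410).

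Of 6 carriers and channels that serve ATP synthesis 3 fell (50%, against 21.6% of all genes) and 0 rose. The only positive difference among them was 0.28 and did not pass. The phosphate carrier gene Slc25a3 fell by 0.35, the adenine nucleotide carrier gene Slc25a4 by 0.32 and the outer membrane channel gene Vdac2 by 0.27 (limma adjusted p = 0.00405, 0.00818 and 0.00802, and 0.168, 0.224 and 0.306 with similar arrays as random blocks), while Slc25a5, another adenine nucleotide carrier, had -0.10 (95% interval -0.25 to 0.053). Of 13 genes of cristae and inner membrane organisation 3 rose (23.1%) and 1 fell (7.69%), where 21.5% of all genes rose and 21.6% fell. Crls1, the cardiolipin synthase gene, had 9.12, 9.03, 9.02 and 8.95 in knockout and 8.36, 8.33 and 8.41 in wild-type arrays and rose by 0.66 (SE 0.064, adjusted p = 3.31e-04, and 0.0401 with similar arrays as random blocks), but had 0.068 (adjusted p = 0.697) as the mean of its probe sets. Opa1, the fusion gene of the inner membrane, had 6.45, 6.47, 7.13 and 7.12 in knockout and 7.75, 7.56 and 7.60 in wild-type arrays, a fall of 0.84 (adjusted p = 0.0127, and 0.0841 with those blocks) that did not pass without wild-type replicate 1 (0.0521) and was 0.034 as the mean of its probe sets. Chchd6 and Immt, of the complex that shapes cristae, rose by 0.28 and 0.19 (adjusted p = 0.0312 and 0.0268, and 0.519 and 0.440 with those blocks), and did not pass without some single arrays (up to 0.0995 and 0.0943). Micos10 of that complex had 0.0048 (95% interval -0.15 to 0.16).

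The 8 probe sets shared by several symbols were left out of the counts of members, and no test was made on them. The one for Ndufs6 and Ndufs6b had 9.55, 9.50, 9.47 and 9.47 in knockout arrays, against 9.59, 9.60 and 9.56 in wild-type arrays. The brighter one for Ndufa11 and Ndufa11b had 9.45, 9.30, 9.42 and 9.35 in knockout arrays, against 9.61, 9.59 and 9.56 in wild-type arrays. In both, all knockout arrays lay below all wild-type arrays. The other 6 overlapped between groups. Among these, the one for Ndufab1 and its pseudogene had 10.44, 10.39, 10.44 and 10.30 in knockout arrays, against 10.26, 10.33 and 10.36 in wild-type arrays, and the dimmer one for Ndufa11 had 4.87, 5.14, 5.01 and 5.22 in knockout arrays, against 4.72, 4.98 and 4.91 in wild-type arrays. The one for Ndufs5 and its pseudogene had 10.38, 10.31, 10.53 and 10.42 in knockout arrays, against 10.48, 10.51 and 10.49 in wild-type arrays. The brighter of those for the Ndufb4 genes had 10.13, 10.06, 10.13 and 10.22 in knockout arrays, against 10.24, 10.16 and 10.11 in wild-type arrays.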
